A study of Mus musculus with 6 samples.

Results

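The genes described here are 10 mouse genes of iron absorption, storage and sensing, read from bulk RNA sequencing of epithelial cells isolated from the ileum. They are Meltf, Slc40a1, Slc11a2, Cybrd1, Tfrc, Heph, Fth1, Hmox1, Aco1 and Ireb2, chosen by name and matched by Ensembl ID, and all 10 were found among the 22274 genes listed. All 10 also had enough reads to be among the 14005 genes tested. The members were proposed with the fold changes of this same comparison already known, so their fold changes and adjusted p-values are given as a description and support nothing by themselves. The Ogt knockout group (3 libraries) combined Ogt-floxed alleles with Olfm4-CreER, a tamoxifen-inducible recombinase driven from Olfm4, a gene of crypt stem cells. The control group (3 libraries) has the genotype label LoxP, with a title that gives Olfm4 but no recombinase, so effects of the recombinase and of losing Ogt cannot be told apart. By the protocol given for both groups, mice of 2 months received tamoxifen on 3 days in a row, and ileum was taken on day 10, when the epithelium of the knockout is described as negative for Ogt. Ogt encodes O-GlcNAc transferase, which adds a sugar to proteins of the nucleus and cytoplasm. The labels name no animal for a library, and what the p-values measure is therefore library spread, which may be technical.

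Enterocytes take iron up at the brush border, hold it in ferritin and release it to blood at the basolateral membrane. Cybrd1 reduces ferric iron at the apical surface, Slc11a2 (DMT1) carries the ferrous ion inward, Slc40a1 (ferroportin) exports it, and Heph, a copper ferroxidase, oxidises it for transferrin. Much of this machinery is classically placed in the duodenum, and the ileum is not the main site of absorption. When cytosolic iron is low, the iron regulatory proteins encoded by Aco1 and Ireb2 bind hairpins called iron-responsive elements (IREs). Binding near the start of an mRNA blocks its translation, as in ferritin and ferroportin, and binding in the 3′ untranslated region (UTR) protects the mRNA of the transferrin receptor Tfrc from decay. RNA sequencing sees the second of these effects and not the first.

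The members that carry the canonical form of these hairpins are shown because transcripts with and without that form can then be set apart. Mouse coding transcripts of GENCODE M21 (GRCm38) were searched on their own strand for the canonical element. That is a stem with at least 4 of 5 lower pairs, an unpaired C, 5 of 5 upper pairs (G with T allowed) and the loop CAGTGN with a last base other than G. The motif was found in a UTR of 14 of 21901 coding genes, or 0.0639%, and 3 of the 10 members were among them. Capitals mark the loop. A match describes the letters and does not show that the element is bound.
Slc40a1, 5′ UTR, chr1:45925466-45925492, minus strand: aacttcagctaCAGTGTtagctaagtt
Fth1, 5′ UTR, chr19:9982733-9982759, plus strand: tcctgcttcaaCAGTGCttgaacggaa
Tfrc, 3′ UTR, chr16:32631220-32631246, plus strand: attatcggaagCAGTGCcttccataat
Tfrc, 3′ UTR, chr16:32631599-32631625, plus strand: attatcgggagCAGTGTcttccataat
Tfrc, 3′ UTR, chr16:32631664-32631690, plus strand: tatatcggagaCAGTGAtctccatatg
Tfrc, 3′ UTR, chr16:32631711-32631737, plus strand: attatcgggaaCAGTGTttcccataat
The light ferritin gene Ftl1, no member but the partner of Fth1 in the ferritin shell, carries a 5′ element too.
Ftl1, 5′ UTR, chr7:45459780-45459806, minus strand: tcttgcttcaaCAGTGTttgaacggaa
In the other 7 members no such match was found in a UTR. That says only that these letters are not there, and not that a hairpin of another form is absent.

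Library totals ran from 14389429 to 18076479 estimated counts. Ogt itself stood at 48.5, 43.0 and 36.0 CPM (counts relative to library size, TMM-scaled) in knockout libraries, against 140, 127 and 128 CPM in control libraries (log2 fold change -1.63 ± 0.13, adjusted p = 0.00121). Which exons were deleted is not given, so remaining reads may include truncated mRNA. Of 8 epithelial markers such as Epcam and Vil1, none was called, and their summed level was 16193 to 19519 CPM in knockout and 17605 to 22200 CPM in control libraries. In epithelium isolated in bulk, fewer cells of a type and less RNA per cell cannot be told apart.

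Of the 10 members, Meltf rose, Slc40a1, Fth1 and Heph fell, and 6 did not pass the test (quasi-likelihood test of edgeR, p adjusted by Benjamini-Hochberg, threshold 0.05). Over all tested genes 18.7% were called, 9.33% higher and 9.37% lower. The median log2 fold change of the members was -0.32, against -0.05 over all tested genes. The 3 knockout and 3 control CPM values did not overlap for 6 of the 10 members, 2 higher and 4 lower in knockout. The same held for 39.8% of tested genes, 19.6% higher and 20.2% lower. Without knockout 2, knockout 3, control 2 or control 3, only Meltf and Slc40a1 were called among the members.

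**Figure D1:**
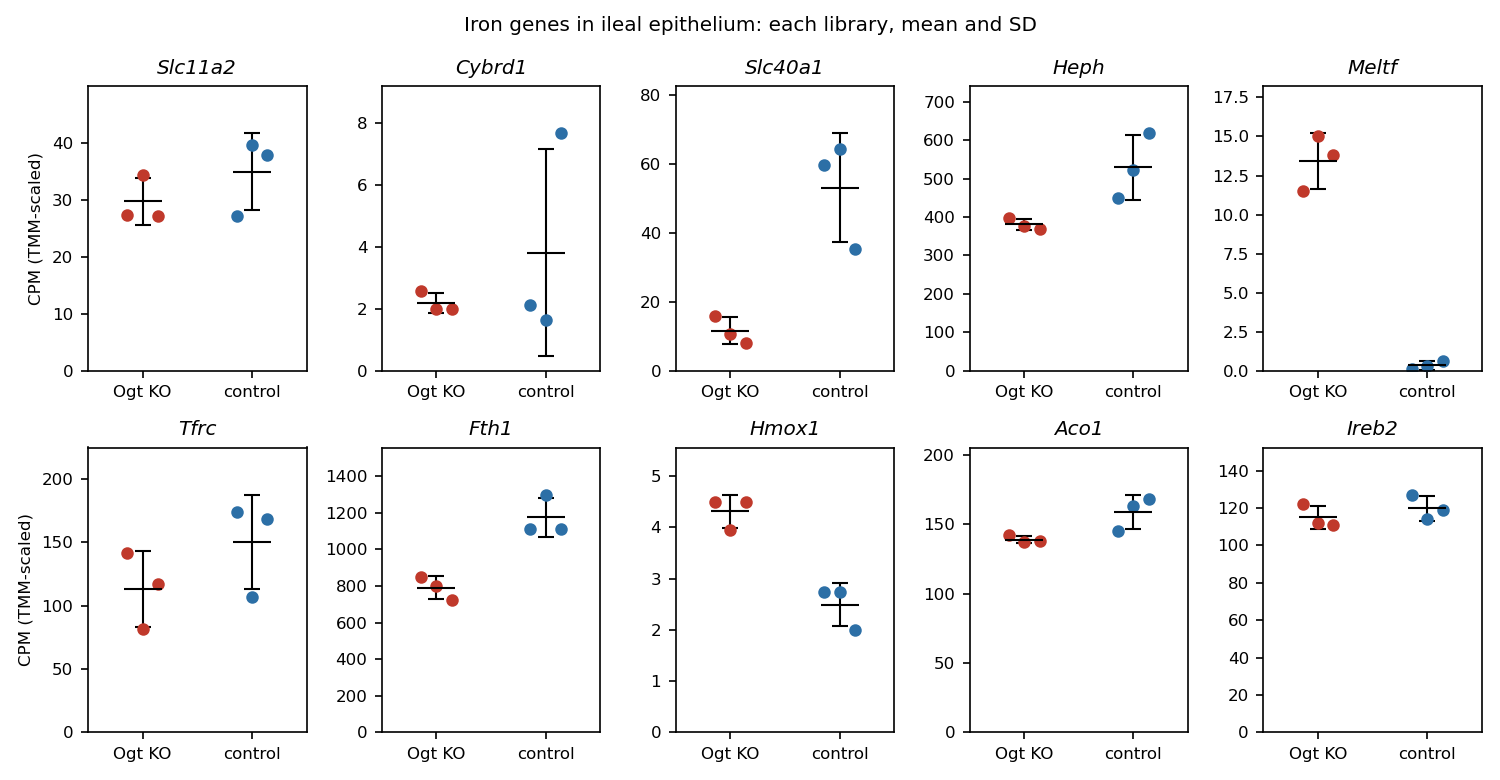
Scaled CPM (y axis, from 0) of each member in the 3 Ogt knockout libraries (red, left) and the 3 control libraries (blue, right), with the mean and SD as black bars. Meltf sits between 11.5 and 15 CPM in knockout and below 1 CPM in control libraries, and all 3 knockout values of Slc40a1 lie below the lowest control.

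Both members that act in iron export, Slc40a1 and Heph, were called lower, Slc40a1 in every fit run and Heph only under some settings. Slc40a1 (ENSMUSG00000025993, minus strand of chromosome 1 at 45908068 to 45926523 in GRCm38), which encodes ferroportin, the only known cellular iron exporter of mammals, had 15.8, 10.7 and 8.15 CPM in knockout libraries, against 59.7, 64.5 and 35.3 CPM in control libraries. The highest knockout library lay under the lowest control, which was control 3. The group means were 11.6 ± 3.91 CPM in knockout and 53.2 ± 15.7 CPM in control libraries (SD, n = 3 each), a log2 fold change of -2.21 ± 0.31 (SE; adjusted p = 0.00567). The fold change stayed between -2.49 and -2.00 with any 1 library left out, with adjusted p up to 0.0312. Hephaestin, the ferroxidase that works beside ferroportin, had 397, 377 and 370 CPM in knockout libraries, against 449, 522 and 617 CPM in control libraries. Heph lies on chromosome X, where it overlaps Hsf3 on the opposite strand, a gene at 0.276 CPM or less in every library. The groups of Heph did not overlap, and the knockout libraries were closer to each other than the controls were. Heph fell by 0.47 on the log2 scale (SE 0.14, adjusted p = 0.0485). That call rests on all libraries but control 1, since the adjusted p was 0.159 without control 3, 0.103 without control 2, and 0.102, 0.143 and 0.151 without knockouts 1, 2 and 3. It also ended with libraries scaled by size alone (-0.34, adjusted p = 0.0937), DESeq2 size factors (0.0514), limma voom (0.0502), no count filter (0.0525) and the 3 FPKM fits (0.0950, 0.0953 and 0.130). The ratio of Slc40a1 to Heph in FPKM (fragments scaled by transcript length and depth) was 0.0554, 0.0394 and 0.0306 in knockout, against 0.188, 0.171 and 0.0851 in control libraries. That ratio restates the values of these members and is no separate result.

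Ferroportin is also strongly expressed by macrophages that recycle red cells, and hephaestin is most abundant in mature villus cells, so the markers of those cells are given beside these values. Of 11 macrophage markers such as Csf1r, C1qa and Cd163, 10 were tested and none was called. Their sum was 249 to 340 CPM in knockout and 295 to 346 CPM in control libraries, with Marco below 1 CPM in every library. Of 7 villus tip markers 4 fell, namely Nt5e, Slc28a2, Alpi and Klf4, and their list summed to 11158 to 12771 CPM in knockout and 13577 to 14522 CPM in control libraries. Of 7 distal small intestine markers Slc10a2 and Mep1a fell, and the list summed to 6053 to 7356 CPM in knockout and 8007 to 10096 CPM in control libraries. Of 5 tested proximal small intestine markers S100g fell (-1.67 ± 0.41, adjusted p = 0.0268), and that list summed to 741 to 1408 CPM in knockout and 447 to 2237 CPM in control libraries. Among all tested genes 9.37% were called lower. The part of these markers in the lower Slc40a1 and Heph was not tested.

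Neither member that acts in iron uptake at the brush border was called. Slc11a2, which carries ferrous iron into the cell, had 27.3, 34.4 and 27.2 CPM in knockout libraries, against 27.2, 39.6 and 37.9 CPM in control libraries. The groups overlapped, control 1 standing with the knockout libraries, and the log2 fold change was -0.23 ± 0.17 (adjusted p = 0.375). Cybrd1, the reductase, was scarce in all libraries, with 2.56, 2.00 and 2.01 CPM in knockout and 2.13, 1.64 and 7.65 CPM in control libraries. Control 3 held 130 of the 192 control reads of Cybrd1, and the log2 fold change turned to 0.24 when it was left out, against -0.80 ± 0.57 with all libraries (adjusted p = 0.366). The ratio of exporter to importer, Slc40a1 over Slc11a2 in FPKM, was 0.65, 0.334 and 0.302 in knockout libraries, against 2.32, 1.33 and 0.786 in control libraries. These ratios did not overlap between the groups, and the FPKM of the exporter was below that of the importer in all 3 knockout libraries and in control 3. FPKM depend on transcript length. The length that counts and FPKM imply for Slc11a2 was 2.67 kb in control 3 and 3.40 to 3.78 kb in knockout libraries.

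Meltf (ENSMUSG00000022780, plus strand of chromosome 16 at 31878810 to 31899020 in GRCm38) encodes melanotransferrin, a relative of transferrin anchored to the cell surface whose part in iron metabolism is unsettled. It had 166, 270 and 260 reads in knockout libraries, against 2, 5 and 11 reads in control libraries. In scaled units that was 11.5, 15 and 13.8 CPM in knockout, against 0.122, 0.303 and 0.647 CPM in control libraries, where 3 reads correspond to between 0.177 and 0.183 CPM. Control 1 thus lay under that floor and the other two controls above it. Over the pooled reads the ratio was 37.6, with an exact 95% interval of 23.6 to 63.8 that covers counting error only. The fitted log2 fold change was 5.19 ± 0.42 (adjusted p = 0.00130), between 4.84 and 5.97 with 1 library left out, with adjusted p up to 0.0129. On the log2(FPKM + 0.1) scale, which understates changes of low genes, it was 4.30. By length Meltf remained a scarce transcript, at 3.41 ± 0.544 FPKM in knockout and 0.0833 ± 0.0611 FPKM in control libraries. Its FPKM relative to that of Slc40a1 was 0.591, 1.14 and 1.37 in knockout libraries, against 0.00170, 0.00388 and 0.0143 in control libraries. Stromal and endothelial markers could come from other cells in the isolate. Of 8 such markers Col1a1 and Col1a2 rose and 6 were not called. On the log2 scale those 6 were Col3a1 (0.52), Pdgfra (0.27), Cdh5 (0.23), Dcn (0.09), Pecam1 (-0.06) and Vim (-0.40). The median of the list was 0.25, and 9.33% of all tested genes were called higher. The list summed to 449 to 514 CPM in knockout and 322 to 472 CPM in control libraries. Their part in the Meltf values was not tested.

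Tfrc, the receptor that brings in transferrin-bound iron and is typical of dividing cells, had 141, 81.8 and 117 CPM in knockout libraries, against 174, 107 and 168 CPM in control libraries. The groups overlapped, and replicate 2 was the lowest of each group. The log2 fold change was -0.40 ± 0.25 (adjusted p = 0.294). With the replicate number as a block in the same test it was -0.41 ± 0.09 (adjusted p = 0.0269). Replicate numbers were not taken as pairs. Crypt and proliferation markers, which summed to 418 to 590 CPM in knockout and 251 to 481 CPM in control libraries, held no called gene among 8. Their log2 fold changes ran from -0.38 to 0.78, with a median of 0.41.

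**Figure D2:**
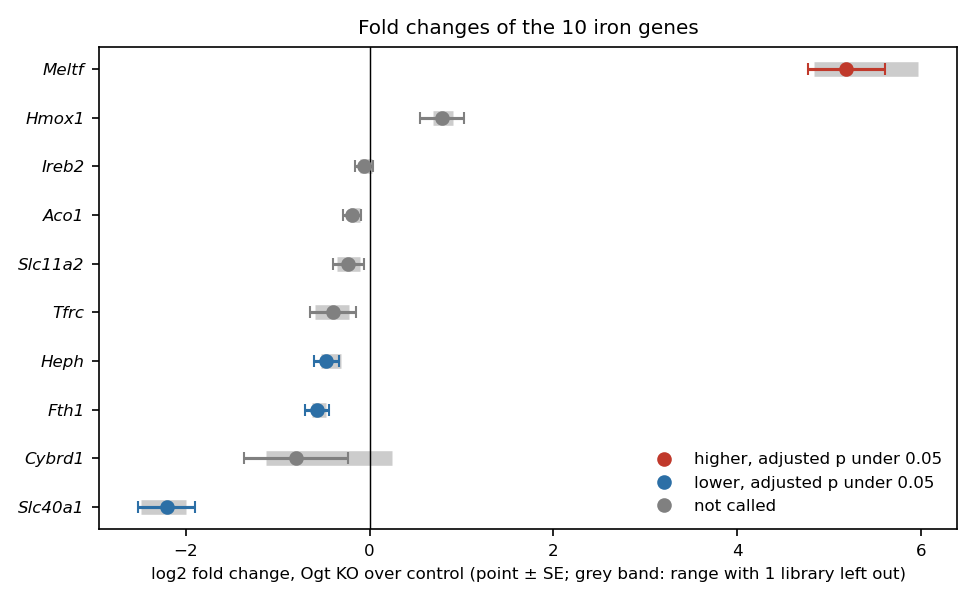
Log2 fold change of each member, Ogt knockout over control (x axis), with its SE (bars), the range of the fold change when any 1 library is left out (grey band), and the call (red higher, blue lower, grey not called). Meltf at 5.19 and Slc40a1 at -2.21 stand apart from the other 8 members, and the bands of Cybrd1 and Ireb2 cross 0.

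In the storage arm, Fth1 fell. It encodes the heavy ferritin subunit, which oxidises iron as it enters the shell, and was the most abundant member. It had 851, 798 and 723 CPM in knockout libraries, against 1114, 1298 and 1114 CPM in control libraries, with no overlap between groups. The log2 fold change was -0.57 ± 0.13 (adjusted p = 0.0220). The adjusted p was 0.0560 without control 3, 0.0702 without control 2, 0.0834 without knockout 2 and 0.0952 without knockout 3, while the fold change itself stayed between -0.63 and -0.47.

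The light subunit needs its near-identical copy to be read. The row of Ftl1 alone had 675, 810 and 657 CPM in knockout libraries, against 433, 819 and 444 CPM in control libraries. The row of Ftl1-ps1, a retrogene of it annotated as coding, had 0.968, 0.667 and 1.22 CPM in knockout libraries, against 521, 0.970 and 537 CPM in control libraries. Controls 1 and 3 thus differed from the other 4 libraries in how light ferritin counts split between the rows. Whether that split comes from the assignment of reads or from the animals was not tested, and estimated counts of both rows were fractional in all 6. Summed, the 2 rows stood at 676, 810 and 658 CPM in knockout libraries, against 954, 820 and 981 CPM in control libraries. These sums did not overlap. The sum gave a log2 fold change of -0.36 ± 0.14 (adjusted p = 0.108), where Ftl1 alone gave 0.34 ± 0.25 (adjusted p = 0.392). The sum was chosen after the values had been seen. Heavy over summed light ferritin, in FPKM, was 1.36, 1.09 and 1.22 in knockout and 1.23, 1.72 and 1.25 in control libraries, and these ratios overlapped.

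**Figure D3:**
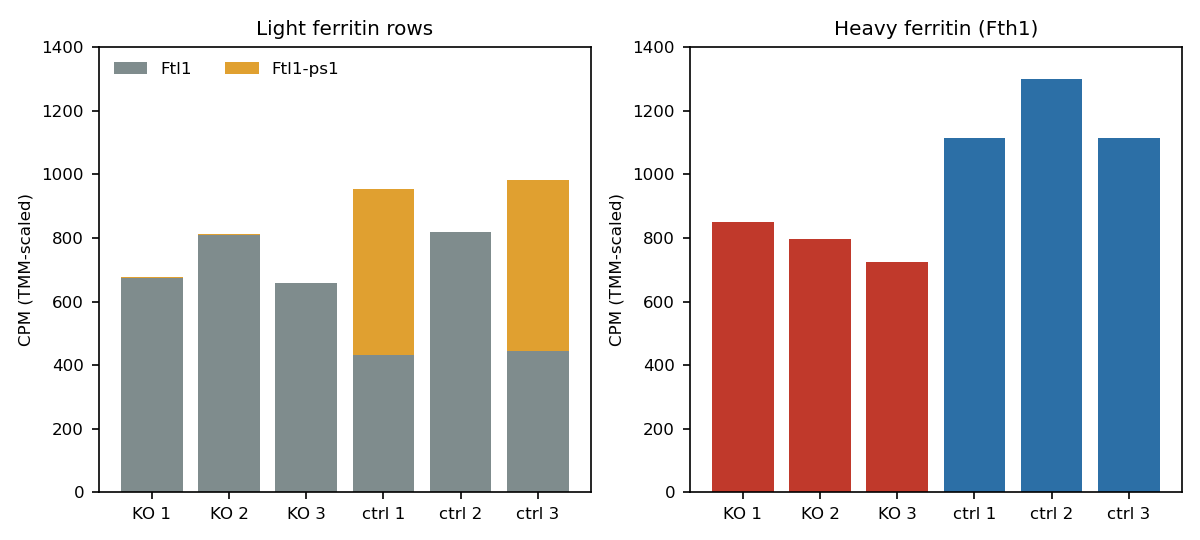
Ferritin transcripts in each library, in scaled CPM (y axes from 0): left, light ferritin as the stacked rows of Ftl1 (grey) and its copy Ftl1-ps1 (orange), right, heavy ferritin Fth1 (red knockout, blue control). Ftl1-ps1 stands at 521 and 537 CPM in controls 1 and 3 and at 1.22 CPM or less elsewhere, and every knockout bar of Fth1 is below every control bar.

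Hmox1, the inducible oxygenase that frees iron from heme, had 4.49, 3.94 and 4.50 CPM in knockout libraries, against 2.74, 2.73 and 2.00 CPM in control libraries. The groups did not overlap, at 34 to 85 reads a library. The log2 fold change of 0.79 ± 0.24 did not pass the test (adjusted p = 0.0567), and lay on either side of the threshold under other settings, from 0.0229 with limma on log2(FPKM + 0.1) to 0.162 without knockout 3. Hmox1 is also high in macrophages, whose markers are given above, and its part from them was not tested.

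The regulators were the steadiest members. Aco1, which encodes the cytosolic aconitase that doubles as iron regulatory protein 1, had 142, 137 and 138 CPM in knockout libraries, against 145, 163 and 168 CPM in control libraries. The groups did not overlap in CPM, but the log2 fold change of -0.19 ± 0.10 did not pass the test (adjusted p = 0.217). In FPKM the groups of Aco1 overlapped, at 37.23, 37.47 and 39.23 in knockout and 37.1, 40.13 and 41.32 in control libraries. Scaled by library size alone, its log2 fold change was -0.06 (adjusted p = 0.718). Ireb2, which encodes iron regulatory protein 2, had 122, 112 and 111 CPM in knockout libraries, against 127, 114 and 119 CPM in control libraries, with overlapping groups and a log2 fold change of -0.06 ± 0.10 (adjusted p = 0.694). The direction of Ireb2 turned to 0.07 when libraries were scaled by size alone. Both proteins are controlled after transcription by iron, through the iron-sulfur cluster of the aconitase and the degradation of its partner, which these data do not measure.

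Per length the members spanned a wide range. In control libraries the order was Fth1 at 1265 ± 94.4 FPKM, Heph at 107 ± 14.8, Aco1 at 39.5 ± 2.18, Tfrc at 29.4 ± 7.61, Ireb2 at 19.8 ± 1.52, Slc40a1 at 15.4 ± 4.25, Slc11a2 at 11.5 ± 3.39, Hmox1 at 1.52 ± 0.276, Cybrd1 at 0.677 ± 0.585 and Meltf at 0.0833 ± 0.0611 FPKM. Neighbours overlapped for Tfrc and Ireb2, for Slc40a1 and Slc11a2, and for Hmox1 and Cybrd1. In knockout libraries the first 5 places were the same, with Fth1 at 937 ± 29.2, Heph at 85.5 ± 0.471 and Aco1 at 38.0 ± 1.09 FPKM. Slc11a2 came next at 8.66 ± 1.38 FPKM, above Slc40a1 at 3.57 ± 1.06, Meltf at 3.41 ± 0.544 and Hmox1 at 2.88 ± 0.235 FPKM, and Cybrd1 was last at 0.427 ± 0.0473 FPKM. In knockout libraries Tfrc and Ireb2 overlapped, as did Slc40a1 and Meltf, and Meltf and Hmox1. With medians in place of means, Meltf and Slc40a1 changed places in the knockout order.

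**Figure D4:**
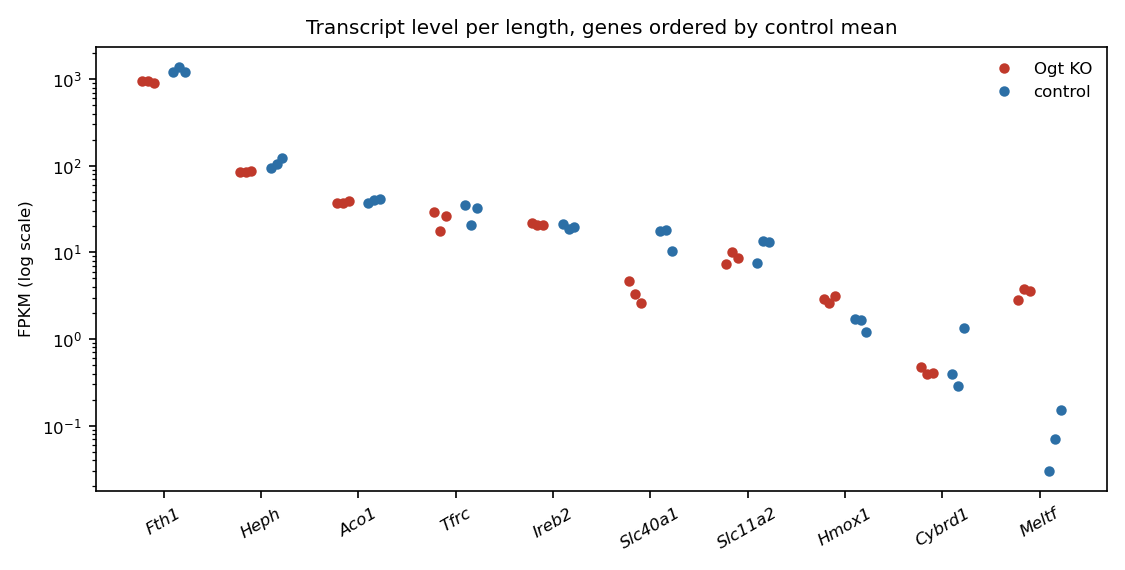
FPKM of each member (y axis, log scale) in the 3 Ogt knockout libraries (red, left) and 3 control libraries (blue, right), genes ordered from left to right by control mean. Fth1 (937 FPKM in knockout, 1265 in control) and Heph (85.5 and 107 FPKM) lead in both groups, and Meltf is last in control libraries but beside Slc40a1 in knockout libraries.

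The 3 members with the canonical motif were set beside the other genes that carry it. Of the 14 genes with the motif, 11 were tested, 3 fell and none rose, with 9.37% of all tested genes called lower. The 3 were Slc40a1, Fth1 and Zbtb44, a zinc finger gene with the motif in its 3′ UTR that had 19.1, 20.1 and 19.1 CPM in knockout libraries, against 30.6, 23.9 and 27.1 CPM in control libraries (log2 fold change -0.48 ± 0.13, adjusted p = 0.0379). Slc40a1 and Fth1 are members chosen with these fold changes known, so the count that fell supports nothing by itself. The 14 genes include both Ftl1 and its near-identical copy Ftl1-ps1. Zbtb44 was singled out after its values had been seen. Alas2, the erythroid enzyme with a 5′ element, stayed below 1 CPM in every library.

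Likeness of pattern was measured as the Euclidean distance between centred log2(CPM + 0.25) profiles over the 6 libraries and 12036 genes, where a small value means alike. Nearest to Slc40a1 were Mx1, an interferon-induced GTPase (distance 0.56), Nudt12 (0.75), a nucleotide hydrolase, and Bst1 (0.77), an ectoenzyme. Mx1 had 1.18, 0.611 and 0.529 CPM in knockout libraries, against 5.05, 4.91 and 4.24 CPM in control libraries. Nearest to Meltf, but farther off, were the muscle actin Acta1 (1.75), the cytochrome P450 Cyp2b10 (1.77) and the muscle gene Myot (1.78). Acta1 was the only called gene of 7 smooth and striated muscle markers. The other 6 lay between -0.97 and -0.45 on the log2 scale, and the list median was -0.64. Cyp2b10 had 72.5, 60.1 and 63.2 CPM in knockout libraries, against 0.791, 6.0 and 2.06 CPM in control libraries. All 6 genes, like the member they resemble, had groups that did not overlap, as had 39.8% of all tested genes. They were picked for likeness over these same 6 libraries, so this is no separate result.

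Beyond the members, 109 further iron genes in 8 lists were read from the same fit, 101 of them tested. Of these 17 rose and 10 fell, with 9.33% and 9.37% of all tested genes called, and their median log2 fold change was -0.08. Alas1, Pcbp1, Gclm, Tspo, Cubn and Fbxl5, described among them, overlap genes on the opposite strand, from which reads counted without strand cannot be told apart. The partner of Fbxl5 is Bst1. On their own strands Abcb6 overlaps Gm29253, and Gclm overlaps the pseudogene Gm6061. The lists were drawn up from known iron biology and not for how their genes moved, but with earlier results of these data known. The number that rose was between 7 and 10 without any 1 knockout library or control 3, and the number that fell was 5, 4 and 5 without knockout 2, knockout 3 and control 3.

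**Figure D5:**
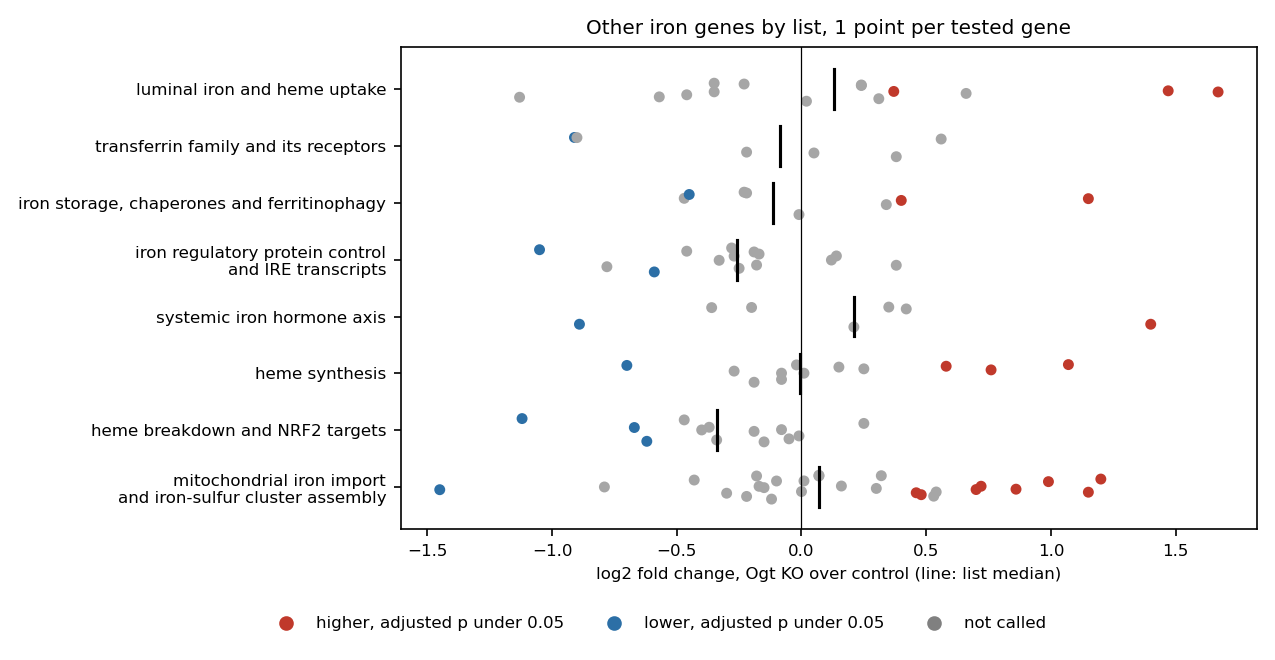
Log2 fold change, Ogt knockout over control (x axis), of each tested gene in 8 lists of iron biology (rows), with the list median as a black line and calls in red (higher), blue (lower) and grey (not called). The row of iron-sulfur cluster assembly holds 8 red points and 1 blue point, and the row of heme breakdown and NRF2 targets holds 3 blue points and no red one.

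Iron-sulfur cluster assembly and mitochondrial iron import held 27 tested genes, of which 8 rose and 1 fell (median 0.07). Among all tested genes 9.33% were called higher and 9.37% lower. Nfu1, which hands clusters to mitochondrial enzymes, had 43.1, 37.1 and 39.8 CPM in knockout libraries, against 19.2, 18.3 and 16.4 CPM in control libraries (1.15 ± 0.12, adjusted p = 0.00190). Iscu, the scaffold on which clusters are built, averaged 52.7 ± 4.57 CPM in knockout and 29.1 ± 3.27 CPM in control libraries (0.86 ± 0.12, adjusted p = 0.00466). Ndor1, a reductase of the cytosolic branch, rose as well (0.99 ± 0.18, adjusted p = 0.00918), though all 6 of its estimated counts were fractional and its exons overlap those of other genes. Abcb8, a transporter of the inner mitochondrial membrane, averaged 8.94 ± 3.02 CPM in knockout and 24.3 ± 1.84 CPM in control libraries (-1.45 ± 0.23, adjusted p = 0.00591). These 4 calls were kept with any 1 library left out. The most abundant gene of the list, the chaperone Hspa9, stood at 0.16 ± 0.13 and was not called.

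Heme synthesis held 12 tested genes, of which 3 rose and 1 fell (median -0.00), against 9.33% and 9.37% of all tested genes. Alas1, the rate-limiting enzyme outside red cells and the most abundant of the list, had 135, 130 and 121 CPM in knockout libraries, against 79.0, 75.2 and 73.8 CPM in control libraries (0.76 ± 0.09, adjusted p = 0.00288). Alad, which acts next, averaged 39.4 ± 4.66 CPM in knockout and 18.7 ± 1.55 CPM in control libraries (1.07 ± 0.13, adjusted p = 0.00288). Tspo, a porphyrin-binding protein of the outer mitochondrial membrane, rose (0.58 ± 0.14, adjusted p = 0.0256) and Abcb6, a porphyrin transporter, fell (-0.70 ± 0.14, adjusted p = 0.0143). The calls of Alas1 and Alad were kept with any 1 library left out. The adjusted p of Abcb6 reached 0.0659 without knockout 2 or 3, and that of Tspo 0.0957 without knockout 2 or 3 or control 2 or 3.

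Among 13 genes of heme breakdown and targets of NRF2, the factor of the antioxidant response, 3 fell and none rose (median -0.34). The shares over all tested genes were 9.37% lower and 9.33% higher. Blvrb, a biliverdin reductase downstream of heme oxygenase, had 6.36, 5.94 and 5.61 CPM in knockout libraries, against 11.9, 14.1 and 13.0 CPM in control libraries (-1.12 ± 0.16, adjusted p = 0.00437). Gclm, a subunit of the first enzyme of glutathione synthesis, fell (-0.67 ± 0.12, adjusted p = 0.00810), as did Gpx4, which removes lipid peroxides (-0.62 ± 0.14, adjusted p = 0.0195). The adjusted p of Gpx4 reached 0.0827 without knockout 1, knockout 3 or control 3. Srxn1, the most abundant of the list, stood at -0.08 ± 0.14.

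Of 14 genes of uptake and heme transport 3 rose and none fell (median 0.13), against 9.33% and 9.37% of all tested genes. Steap1, of the metalloreductase family, had 5.46, 3.83 and 3.65 CPM in knockout libraries, against 2.01, 0.910 and 1.12 CPM in control libraries (1.67 ± 0.36, adjusted p = 0.0178). Flvcr2, a choline transporter also reported to carry heme, averaged 26.9 ± 6.12 CPM in knockout and 9.71 ± 4.01 CPM in control libraries (1.47 ± 0.33, adjusted p = 0.0238). Slc39a14, an importer of zinc, manganese and iron, rose by less (0.37 ± 0.11, adjusted p = 0.0473), and the abundant porphyrin exporter Abcg2 stood at -0.35 ± 0.13. The adjusted p of Steap1 reached 0.0689 and that of Slc39a14 0.153 without control 3 or any 1 knockout library, and that of Flvcr2 0.0795 without knockout 2 or 3.

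Among 14 tested genes of iron regulatory control, IRE transcripts and oxygen sensing, 2 fell and none rose (median -0.26). The shares over all tested genes were 9.37% and 9.33%. Epas1 encodes HIF2-alpha, which drives Slc11a2, Cybrd1 and Slc40a1 in the duodenum. It had 43.3, 41.7 and 35.7 CPM in knockout libraries, against 51.4, 72.2 and 58.4 CPM in control libraries (-0.59 ± 0.14, adjusted p = 0.0268). Egln3, a hydroxylase that marks HIF proteins for removal, averaged 44.7 ± 16.8 CPM in knockout and 92.5 ± 6.69 CPM in control libraries (-1.05 ± 0.24, adjusted p = 0.0248). The call of Epas1 ended without any 1 library but control 1 (adjusted p up to 0.107) and that of Egln3 without any 1 library but knockout 1 (adjusted p up to 0.0842). Fbxl5, the iron-sensing ligase that removes the regulatory protein of Ireb2, was not called.

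The 3 remaining lists were short, and 18.7% of all tested genes were called in either direction. Of 8 tested genes of storage and iron chaperones 2 rose and 1 fell (median -0.11). Bola2, a cluster chaperone, rose (1.15 ± 0.23, adjusted p = 0.0135), as did Pcbp1, which delivers iron to ferritin (0.40 ± 0.11, adjusted p = 0.0440). Herc2, a ligase that turns over the ferritin receptor NCOA4, fell (-0.45 ± 0.10, adjusted p = 0.0220). Estimated counts of Bola2 were fractional in 5 libraries, and its exons overlap those of genes on the opposite strand. Of 6 tested genes of the transferrin family and its receptors Lrp1, which takes up heme bound to hemopexin, fell, with 184, 165 and 141 CPM in knockout libraries, against 340, 289 and 294 CPM in control libraries (-0.91 ± 0.13, adjusted p = 0.00470). Cubn, the most abundant of that list, stood at -0.90 ± 0.34 (adjusted p = 0.114). Of 7 tested genes of the systemic hormone axis Erfe, which encodes erythroferrone, a suppressor of hepcidin known from erythroblasts, rose at low levels, with 11.1, 7.72 and 9.52 CPM in knockout libraries, against 4.44, 2.61 and 3.65 CPM in control libraries (1.40 ± 0.26, adjusted p = 0.0102). All 6 of its estimated counts were fractional and its exons overlap those of Ilkap on the opposite strand. Erythroid markers summed to 24.1 to 31.1 CPM in knockout and 8.46 to 52.6 CPM in control libraries, with the defining genes Slc4a1 and Gata1 at 3 reads or fewer in each. Bmp2, which induces hepcidin in liver, fell (-0.89 ± 0.24, adjusted p = 0.0424), and the abundant Smad4 stood at 0.21 ± 0.12. Hamp, which encodes hepcidin, was too low to be tested. The calls of Herc2, Pcbp1 and Bmp2 ended without any 1 library but control 1, with adjusted p up to 0.106, 0.141 and 0.142, and that of Bola2 without control 3 (0.0503). Those of Lrp1 and Erfe were kept with any 1 library left out.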

How the data were processed

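The members and gene lists were chosen with earlier results of these data known. Per the file headers, the authors deposited expected counts and FPKM for each gene and library. The authors deposited each estimated count as a number that need not be whole, made by a tool not named here, and each FPKM scaled by transcript length and depth. Per the submitters' processing notes the genome build was GRCm39 (mm39). Aligner, counting tool and annotation release: not given in the sources used here. Per the labels' protocols libraries were made with the NEBNext Ultra kit, and strand marking is not stated, so overlapping antisense genes cannot be told apart. Estimated counts were rounded to whole numbers. Between 7.68% and 8.09% per library were not whole within 0.001. GENCODE M21 named 22219 IDs, 54 took the deposited symbol, and 1 has no name. No 2 libraries agreed within sampling noise (mean chi-square per gene at least 20.6).

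Genes were kept with filterByExpr (minimum count 10, minimum total 15), scaled by TMM and compared, Ogt knockout over control, with the quasi-likelihood test of edgeR 4.0.16 (R 4.3.3), Benjamini-Hochberg adjusted over 14005 genes at 0.05. CPM are TMM-scaled. 3 counts correspond to 0.159 to 0.207 CPM. On simulated counts for these 14005 genes 56 of 100 genes with a 2-fold change were found, and 94 of 100 with a 4-fold change, with 17 false calls. No other genes were changed, far fewer than the 2619 called here, so these shares need not hold for the data. Named genes were the members, Ogt, up to 4 called genes of each list by adjusted p and its most abundant, the 3 nearest to Meltf and Slc40a1, and the genes between Meltf and Tfrc. Alternatives used DESeq2 1.42.0 and limma 3.58.1. Of 110 list genes 106 were matched by name and 3 by the deposited symbol, and 1 was not matched.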

Additional observations from a re-analysis of the deposited data

How the results depend on the processing

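Over all genes, 1307 were called higher and 1312 lower. Scaling by library size alone gave 2045 and 859, so 70.4% of calls were higher in place of 49.9%, and the all-gene median was 0.09 in place of -0.05 (log2). In the 3 FPKM fits the median was 0.12, 0.12 and 0.07, and 72.5%, 72.5% and 71.8% of calls were higher. Limma on log2(FPKM + 0.1), log2(FPKM + 0.01) and log2(FPKM + 0.1) with no filter called 724, 717 and 642 lower. With 1 library left out, 549 to 1932 genes were higher and 460 to 1372 lower. Of the members, 1 was called higher and 3 lower. The higher count was 2, with Hmox1 added, with library size alone, DESeq2 and the 3 FPKM fits, and 1 to 2 with 1 library left out. The lower count was 1 to 3 with 1 library left out. Meltf and Slc40a1 were called in every fit run. Of the other iron genes 17 were higher and 10 lower. With 1 library left out 7 to 19 were higher and 4 to 10 lower, and limma on FPKM with no filter gave 6 lower. Replicate numbers were not taken as pairs, since their deviations correlated at 0.274, 0.253 and 0.0842, although each library correlated best with its own number. With the replicate number as a block, 3402 genes were called in place of 2619, 16 other iron genes fell, Tfrc was called (adjusted p = 0.0269) and Heph was not (0.0524). With medians in place of means 2 places of the knockout level order changed. Of 1049 values for 62 genes 19 turned sign, none of them called: Cybrd1 (0.24 without control 3, -1.13 to 0.24 with 1 library left out), Ireb2 (0.07 with library size alone, 0.08 with each FPKM fit, -0.11 to 0.03 with 1 library left out), Srxn1 (0.06 with library size alone and each FPKM fit, -0.16 to 0.03 with 1 library left out, 0.01 without control 3), Pak2 (0.01 with library size alone and each FPKM fit, -0.27 to 0.00 with 1 library left out), Pcyt1a (-0.03 to 0.29 with 1 library left out) and Ftl1 (-0.36 with its copy added). The cause was not tested.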

Other observations

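Meltf and Tfrc, both on chromosome 16, start 730 kb apart in GENCODE M21 (GRCm38), and 16 tested genes lie between them. Of these 3 rose and none fell, with 9.33% of all tested genes called higher. Pigz, the coding gene next to Meltf and an enzyme of glycosylphosphatidylinositol anchors, had 1.24, 1.83 and 1.64 CPM in knockout libraries, against 0.183, 0.424 and 0.765 CPM in control libraries (log2 fold change 1.77 ± 0.49, adjusted p = 0.0424). That call ended without any 1 library but control 3, with adjusted p up to 0.131. The neighbour 0610012G03Rik rose in all fits with 1 library left out (0.75 ± 0.13, adjusted p = 0.00847). Fbxo45, an F-box protein gene, rose (0.52 ± 0.11, adjusted p = 0.0176), with adjusted p up to 0.0641 without knockout 2 or 3 or control 3. The other 13 lay between -0.33 and 0.92 and were not called, among them the abundant bile acid transporter subunit Slc51a (-0.30 ± 0.18).

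The deposited counts and FPKM imply a transcript length for each gene and library, and for Slc11a2 this length varied. It was 3.78, 3.61 and 3.40 kb in knockout libraries, against 3.50, 2.75 and 2.67 kb in control libraries, control 1 lying within the knockout range. The 2 longest coding transcripts of the gene in GENCODE M21 measure 4415 and 3025 bases. For Aco1 and Hmox1 the implied length was 3.83 kb and 1.57 kb in all 6 libraries. On the log2(FPKM + 0.1) scale the fold change of Slc11a2 was -0.37, against -0.23 from the counts, and neither passed the test. Which transcripts differ was not tested.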
